A study of Drosophila melanogaster with 3 samples.

Results

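The translation factor genes of Drosophila melanogaster were described by the binding of the tagged protein Phol at their starts. They were taken as the protein-coding genes whose symbols begin with eIF or eEF, which gave 52 of the 13945 protein-coding genes on the 6 chromosome arms, 44 for initiation and 8 for elongation. Phol (Pleiohomeotic-like) is a zinc-finger DNA-binding protein and the paralog of the Polycomb group protein Pho. Chromatin immunoprecipitation and sequencing (ChIP-seq) with an anti-GFP antibody was applied to whole embryos of pooled sex, aged 0 to 16 hours, from 1 transgenic line with a stable C-terminal GFP fusion of Phol, in chromatin sonicated to a size range of 200 to 800. The 3 biological replicates form a single group, so no treatment or genotype was compared. Each replicate has a list of 30000 peaks, as has the pool of all replicates, and the strongest 10264 pooled peaks make up the authors' reproducible list.

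A gene was called occupied where a summit, the highest point of a peak, lay within 500 bp of any annotated transcript start. Peaks were ranked by the authors' signal value, with rank 1 the strongest. Whole embryos mix many cell types, so a peak does not say in which cells Phol was bound, and the lists hold no RNA levels against which the tissue or the tagged protein could be checked. Read depth is unknown, so no counting interval can be given for a peak. Whether the replicates came from separate embryo collections is not stated, and SDs measure only the spread between these samples.

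Translation begins when initiation factors bring the initiator tRNA, the mRNA cap and the small ribosomal subunit together and scan for a start codon. Elongation factors then deliver aminoacyl-tRNAs and move the ribosome along the message. Several initiation factors have paralogs in Drosophila that are known mainly from the male germ line, in addition to the broadly used gene.

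Most translation factor genes carried Phol at a start. In the reproducible list 37 of 52 (71.2%) were occupied, beside 40.8% of all protein-coding genes. In the strongest 10264 peaks of each replicate list the share was 71.2%, 71.2% and 57.7% in replicates 1, 2 and 3, with a mean of 66.7% ± 7.77 (SD, n = 3). All protein-coding genes reached 43.0%, 41.5% and 37.0% in the same lists. Replicate 3 was the lowest for both. Of the 52 genes, 28 (53.8%) were occupied in the strongest peaks of all 3 replicates, beside 34.2% of all genes. In the full lists of 30000 peaks 41, 42 and 42 genes were occupied in replicates 1, 2 and 3 and 41 in the pool, beside 56.5%, 56.0%, 54.5% and 55.4% of all genes. The full lists of all 3 replicates shared 39 of the 52, beside 49.5%. The plot of occupied shares by group shows these values.

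**Figure D1:**
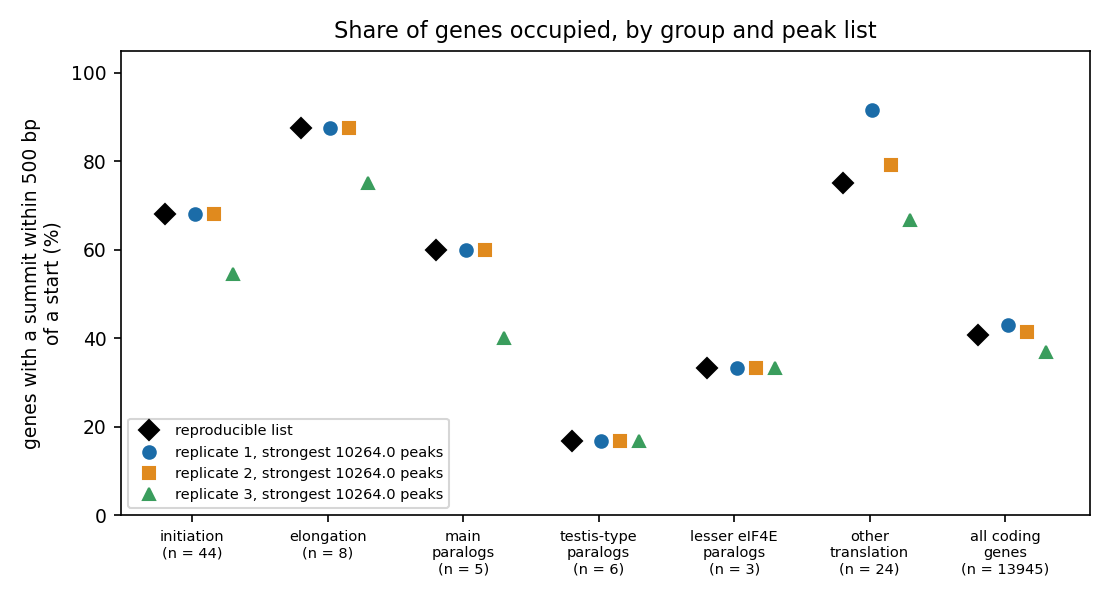
Percent of genes with a summit within 500 bp of an annotated start, for each gene group, in the reproducible list (diamonds) and in the strongest 10264 peaks of each replicate (coloured symbols). Initiation and elongation factors lie above all coding genes in each list, and the testis-type paralogs lie at 16.7% in each.

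Of the 8 elongation factor genes, 7 were occupied, beside 40.8% of all protein-coding genes. All 5 genes of the eEF1 group, which brings aminoacyl-tRNA to the ribosome and recharges itself with GTP, held a peak, as did eEF2, which drives translocation, and eEF5, which helps ribosomes through slow peptide bonds. The exception was eEFSec, the factor for selenocysteine. The strongest of these peaks was at eEF1gamma (3R, 29220172 to 29222109, plus strand), a subunit of the exchange complex. Its summit lay 42 bp upstream of the start at rank 284 of the reproducible list, and it ranked 308, 299 and 276 in replicates 1, 2 and 3, the strongest 0.981% ± 0.0550 (SD, n = 3) of those lists.

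The gene eEF1alpha1, one of a pair encoding the GTPase that carries the aminoacyl-tRNA, ranked 1169, and 1142, 1144 and 1234 in the replicates (3.91% ± 0.175, SD, n = 3). Its summit was 49 bp upstream of the start. The other gene of the pair, eEF1alpha2, ranked 4887, and 6161, 5122 and 4292 in the replicates (17.3% ± 3.12). The eEF1alpha1 peak was the stronger in each replicate. The strongest eEF1alpha2 summit lay 386 bp inside the gene, in an intron, and stood at 386, 396 and 387 bp in the replicates. Weak summits also stood 35 and 167 bp downstream of its other annotated start in replicates 2 and 3, at ranks 27565 and 24117.

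The eEF2 gene showed a similar layout. Its strongest summit lay 462 bp downstream of a start, in an intron, at rank 1884 (2307, 2015 and 1534 in the replicates, 6.51% ± 1.30). A weaker summit stood 260 bp downstream of a start in the reproducible list, at rank 4990. Replicates 1 and 2 also placed a weaker summit 13 and 9 bp downstream of a start, at ranks 6576 and 11066. eEF5 ranked 2130, with its summit 46 bp upstream (1692, 1998 and 2545 in the replicates, 6.93% ± 1.44).

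The exchange factor subunits eEF1delta and eEF1beta had the weakest peaks among occupied elongation factor genes. eEF1delta ranked 5764, 111 bp upstream of its start, and 7070, 4779 and 5184 in the replicates (18.9% ± 4.08). eEF1beta ranked 8629, 368 bp upstream, and 8152, 6417 and 10821 in the replicates (28.2% ± 7.39), so that it fell outside the strongest 10264 peaks of replicate 3. The start of Psi lay nearer to that summit, 140 bp away. Replicates 1, 2 and 3 also had a weaker summit nearer eEF1beta, at −168, −184 and 31 bp from its start (ranks 11072, 10086 and 12406). Around eEFSec a summit was called only in the weak range, at ranks 17503, 22023 and 17480 of the replicate lists and 17438 of the pooled list.

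The DNA under these peaks was searched for GCCAT, the core of the site known for Pho and Phol, and for its extended form GCCATNTT, where N is any base, on both strands from 50 bp before to 50 bp after a summit. Every GCCATNTT also counts as a GCCAT. The extended word was found at 4 of the 7 strongest peaks of elongation factor genes (57.1%), those of eEF1alpha1, eEF1alpha2, eEF1gamma and eEF2. Among all reproducible peaks it was found at 6.63%, and among peaks within 500 bp of a coding start at 7.32%. The windows of 3 of these genes are shown because they place the word at a promoter (eEF1gamma) and inside introns (eEF1alpha2 and eEF2). They are release 6 (dm6) sequence written 5′ to 3′ on the strand of the gene, from chr3R:29220080-29220180 (plus), chr3R:31738804-31738904 (plus) and chr2L:21681604-21681704 (minus), with the words in capitals. A word on the other strand appears as its reverse complement, and the second word of eEF1gamma is TATCGATA, the DNA replication-related element.
eEF1gamma: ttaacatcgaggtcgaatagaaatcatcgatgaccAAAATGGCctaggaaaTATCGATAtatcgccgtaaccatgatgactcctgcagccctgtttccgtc
eEF1alpha2: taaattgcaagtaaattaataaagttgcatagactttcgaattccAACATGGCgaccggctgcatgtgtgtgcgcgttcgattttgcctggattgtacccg
eEF2: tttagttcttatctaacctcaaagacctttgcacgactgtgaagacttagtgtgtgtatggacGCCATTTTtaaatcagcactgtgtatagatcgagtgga

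Of the initiation factor genes, 30 of 44 (68.2%) were occupied, with 63.6% ± 7.87 (SD, n = 3) in the replicates, and of the elongation factor genes 7 of 8 (87.5%), with 83.3% ± 7.22. All protein-coding genes stood at 40.8%, with 40.5% ± 3.13 in the replicates. The difference, initiation minus elongation, was −19.3 percentage points in the reproducible list and in replicates 1 and 2, and −20.5 points in replicate 3. The order did not hold with a window of 200 bp, in which eEF1alpha2, eEF1beta and eEF2 lost their calls. There the initiation share was 15.9 points higher in the reproducible list. In the strongest peaks of the replicates at 200 bp the difference was 1.14 points in replicates 1 and 2 and 0 in replicate 3. Without the 9 testis-type and lesser eIF4E paralogs, initiation stood at 28 of 35 (80.0%), and the difference from elongation was −7.50 points. With 8 elongation factor genes, 1 gene is worth 12.5 percentage points.

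The 5 strongest peaks of all 52 genes belonged to initiation factor genes, followed by that of eEF1gamma at rank 284. eIF4A, the helicase that unwinds the leader of the mRNA, had the strongest (2L, gene from 5981764 to 5985909, plus strand). It ranked 63, with its summit 96 bp upstream of a start, and 83, 53 and 64 in replicates 1, 2 and 3 (0.222% ± 0.0506, SD, n = 3). eIF4EHP, a cap-binding relative of eIF4E that represses translation, followed at rank 87 (110, 80 and 87, 0.308% ± 0.0523). Its summit was 232 bp upstream of its start and 144 bp from the start of CG18428, which runs the other way. All 3 replicates placed both genes within the first 110 peaks of 30000.

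eIF1, which guards the choice of start codon, had its strongest peak at rank 102 (119, 66 and 129, 0.349% ± 0.113). That summit stood at −348 bp from the eIF1 start, upstream of it, and 33 bp from the start of RpL28, a ribosomal protein gene on the opposite strand, and the nearest summit to eIF1 itself was 145 bp upstream at rank 1175. eIF3a, the scaffold subunit of eIF3, ranked 161 (141, 145 and 190, 0.529% ± 0.0907), with its summit 3 bp upstream of the start. The start of CG1074, on the other strand, lay 67 bp from it. eIF6, which keeps the large ribosomal subunit from joining early, ranked 278 (287, 275 and 283, 0.939% ± 0.0204), 100 bp upstream of the start and within an intron of ytr. Its replicate ranks were the closest together of all 37 genes, with a ratio of weakest to strongest of 1.04.

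The remaining 3 of the 8 strongest initiation factor peaks ranked between 1180 and 1934. eIF3c, a core subunit of eIF3, ranked 1180, 25 bp downstream of a start (1527, 804 and 1243, 3.97% ± 1.21). eIF2D, an alternative carrier of tRNA to the ribosome, ranked 1510, 188 bp upstream (1908, 1681 and 1282, 5.41% ± 1.06). eIF5B, the GTPase that joins the ribosomal subunits, ranked 1934 (2536, 1720 and 2075, 7.03% ± 1.36). Its summit was 127 bp upstream of the inner of its annotated starts, in an untranslated exon of the transcript from the outer start. The plot of ranks by gene gives each replicate's value for all 52.

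**Figure D2:**
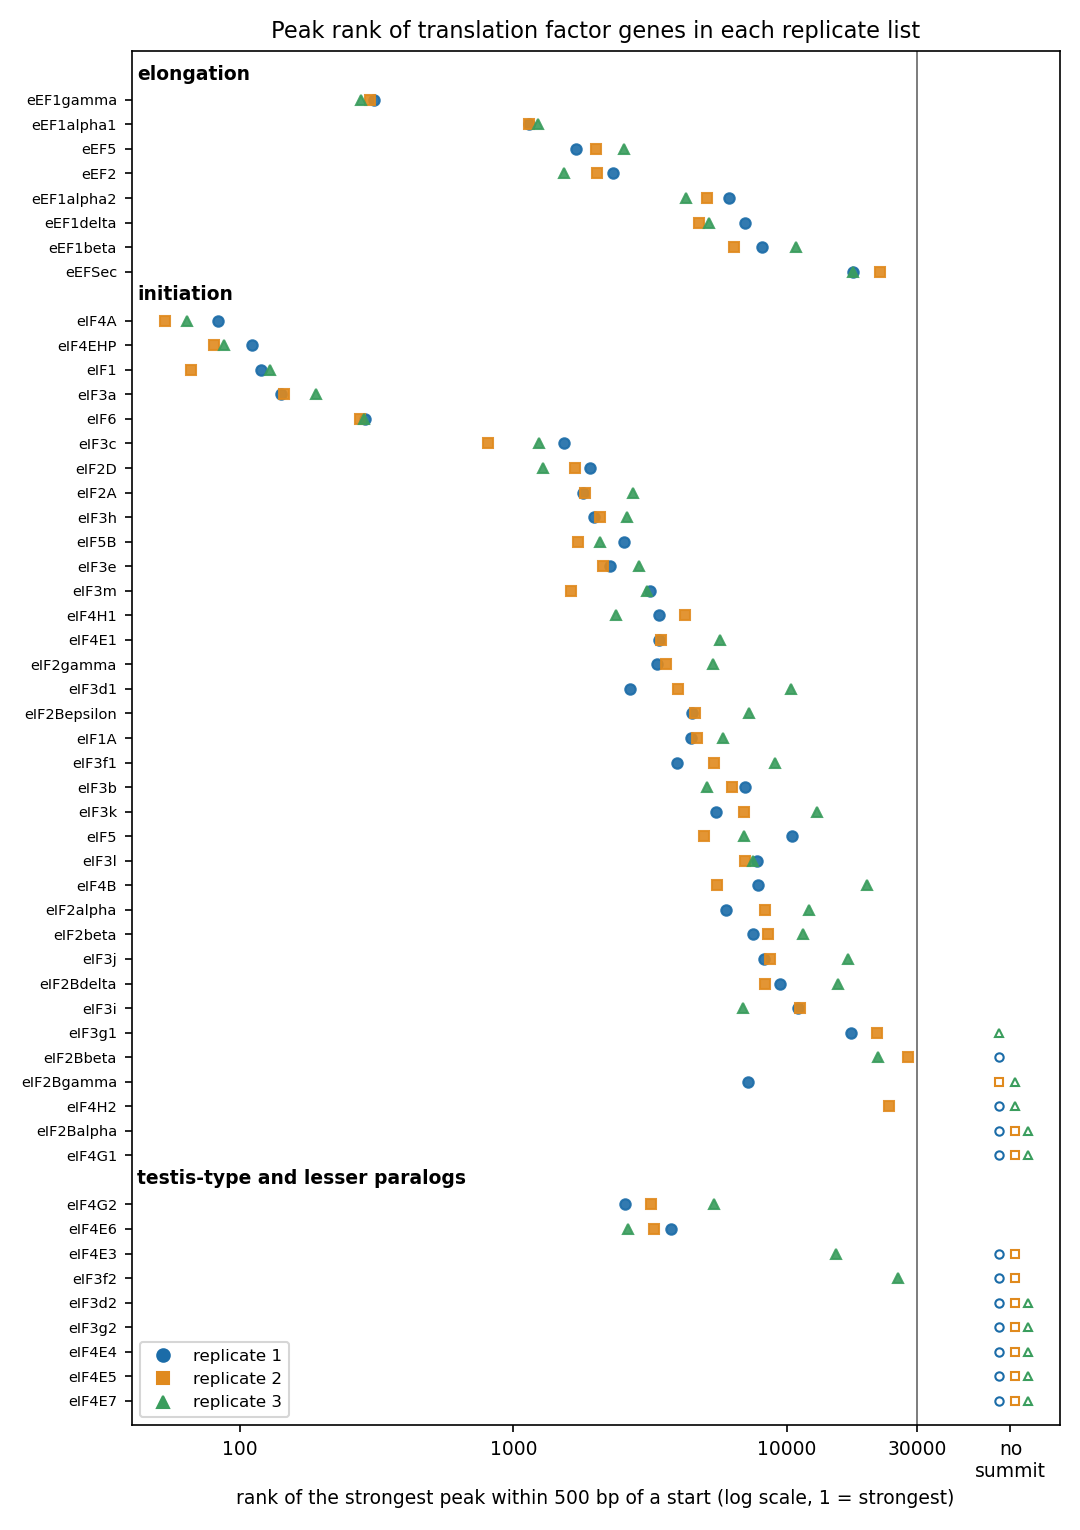
Rank of the strongest peak within 500 bp of a start (log scale, 1 is the strongest of 30000) in replicates 1, 2 and 3 for all 52 genes. Open symbols at the right mark a replicate with no summit in the window. The 5 strongest initiation factor genes lie below rank 300 in each replicate, and 5 of the 9 testis-type and lesser paralogs have no summit in any.

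By step of initiation, the genes for scanning (eIF1, eIF1A and eIF5) were occupied at 3 of 3, and those for subunit joining (eIF5B and eIF6) at 2 of 2. These small groups stand beside 40.8% of all protein-coding genes. eIF1A ranked 5257, and eIF5, the GTPase activator of eIF2, ranked 7870. The replicates ranked eIF5 at 10510, 4992 and 6977, which left it outside the strongest 10264 peaks of replicate 1. The alternative tRNA carriers eIF2A and eIF2D were both occupied, eIF2A at rank 2223.

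The 3 subunits of eIF2, which carries the initiator tRNA, were all occupied. The exchange factor of eIF2, eIF2B, was occupied at 2 of 5 subunit genes, a share close to the 40.8% of all protein-coding genes. eIF2gamma ranked 3952 (3351, 3632 and 5388 in the replicates), with its summit 19 bp upstream of a start that it shares with Su(var)3-9. eIF2alpha ranked 8358 (5999, 8362 and 12049) and eIF2beta ranked 9754 (7524, 8573 and 11504). Both fell outside the strongest 10264 peaks of replicate 3. There 1 of the 3 subunit genes (33.3%) was occupied, beside 37.0% of all genes. Of eIF2B, the catalytic subunit gene eIF2Bepsilon ranked 5231 (4495, 4620 and 7299), 19 bp from the start of Ocrl. eIF2Bdelta ranked 10162 of 10264, among the last of the list (9484, 8323 and 15387), 23 bp from the start of roh.

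The other 3 eIF2B genes were not occupied. eIF2Balpha had its nearest reproducible summit 41304 bp away. eIF2Bgamma had a summit 11 bp downstream of its start in replicate 1 alone, at rank 7194. eIF2Bbeta had no summit in replicate 1 and weak ones in replicates 2 and 3 (ranks 27848 and 21519), while its nearest reproducible summit was 677 bp away on the side of its divergent neighbour Ugalt. It was called with a window of 1000 bp.

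Of the 13 genes for eIF3, the scaffold that holds the small subunit and mRNA together, 11 (84.6%) were occupied, beside 40.8% of all genes, with 79.5% ± 8.88 (SD, n = 3) in the replicates. Beside eIF3a and eIF3c, the genes eIF3m, eIF3e and eIF3h ranked 2362, 2371 and 2486. eIF3d1, eIF3f1, eIF3b, eIF3l, eIF3k and eIF3i ranked 4407, 5927, 5956, 7147, 7459 and 10182. The replicates ranked eIF3i at 10991, 11218 and 6925, so that it stood in the strongest peaks of replicate 3 only. The subunit genes without a call were eIF3g1 and eIF3j. eIF3j stood just below the end of the reproducible list, at rank 10276 of the pooled peaks against a last rank of 10264, and at 8281, 8702 and 16843 in the replicates.

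eIF4 is the group that binds the cap and prepares the mRNA. Of its 7 genes outside the testis-type and lesser eIF4E paralogs, 5 (71.4%) were occupied, beside 40.8% of all genes. Besides eIF4A and eIF4EHP these were eIF4H1 (rank 3255) and eIF4B (rank 8475), both helpers of the helicase, and the cap-binding protein gene eIF4E1 (rank 3871). eIF4G1, the scaffold of the cap complex on chromosome 4, had no summit within 500 bp in any list, and its nearest reproducible summit was 49285 bp away. eIF4H2 had a summit in replicate 2 alone, at rank 23682.

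GCCATNTT was found at 3 of the 30 strongest peaks of initiation factor genes, those of eIF1, eIF3a and eIF3h, beside 6.63% of all reproducible peaks and 7.32% of those near coding starts. They are shown because they differ in where the word lies. In eIF1 it overlaps the annotated start of RpL28, in eIF3a it is just downstream of the start, and in eIF3h the reverse complement covers the start codon of eIF3h itself, in a coding exon. The eIF1 window is chr3L:3222943-3223043 (plus), and the 30 bases around the word are shown from chr3R:4433871-4433900 (minus) for eIF3a and from chr2L:5052720-5052749 (minus) for eIF3h, in release 6, with the word in capitals.
eIF1: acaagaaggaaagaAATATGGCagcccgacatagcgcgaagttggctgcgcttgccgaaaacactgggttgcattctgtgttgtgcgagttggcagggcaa
eIF3a: ccgtcgactcgGCCATTTTgcattaatatt
eIF3h: tacaattcgtcAACATGGCaaatcgcgcaa

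Over all 37 strongest peaks GCCAT was found at 14 (37.8%), beside 19.6% of all reproducible peaks and 22.2% of those near coding starts. GCCATNTT was found at 7 (18.9%), beside 6.63% and 7.32%, and 4 of these 7 were peaks of elongation factor genes. TATCGATA, which reads the same on both strands and was counted once, was found at 7 (18.9%), beside 3.11% and 6.20%. GGTCACAC, known as Motif 1 of core promoters, was found at 3 (8.11%), beside 2.03% and 3.89%, all at initiation factor genes. At least 1 of the 3 longer words was in 15 of the 37 windows (40.5%), beside 11.3% of all peaks and 16.4% of those near coding starts. Median GC content was 43.6% in the 37 windows and 31.7% in all 10264 reproducible peaks, of which 4835 lay within 500 bp of a coding start. It was not measured for those 4835 peaks alone, and its part in the word counts was not tested. A match is a stretch of letters and was not shown to be a bound site.

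The main genes and their testis-type paralogs form small groups, and families did not all run the same way. Of the 5 main genes eIF4E1, eIF4G1, eIF3d1, eIF3f1 and eIF3g1, 3 (60.0%) were occupied, beside 40.8% of all genes, with 53.3% ± 11.5 (SD, n = 3) in the replicates. Of the 6 testis-type paralogs eIF4E3, eIF4E5, eIF4G2, eIF3d2, eIF3f2 and eIF3g2, 1 (16.7%) was occupied, the same count in each replicate. That paralog is eIF4G2, whose main gene eIF4G1 was not occupied. In the families of eIF4E, eIF3d and eIF3f the main gene was occupied and no testis-type paralog was, and in that of eIF3g neither gene was. The difference was 43.3 percentage points in the reproducible list, with 36.7 ± 11.5 in the replicates and 23.3 in replicate 3. Counted over the strongest peaks of both other replicates, it was 23.3 points without replicate 1 or without replicate 2 and 43.3 without replicate 3. In the full list of replicate 3, where weak summits were called at eIF4E3 and eIF3f2, 3 of the 5 main genes and 3 of the 6 paralogs were occupied. Of the 3 lesser eIF4E paralogs, eIF4E6 alone was occupied. Together, 2 of these 9 paralogs (22.2%) were occupied in the reproducible list, and 35 of the other 43 genes (81.4%), beside 40.8% of all genes.

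The 3 occupied main genes had peaks of middle strength. eIF4E1 ranked 3871, 18 bp upstream of a start, and 3418, 3473 and 5682 in the replicates (14.0% ± 4.31). eIF3d1, which can itself touch the mRNA cap, ranked 4407, 51 bp upstream (2666, 3997 and 10417, 19.0% ± 13.8). eIF3f1 ranked 5927, 22 bp upstream (3955, 5436 and 9082, 20.5% ± 8.80). For each of them replicate 3 gave the lowest place. eIF3g1 had weak summits in replicates 1 and 2 (ranks 17193 and 21403) and none in replicate 3.

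Both occupied paralogs shared their peak with the start of another gene. eIF4G2, the testis counterpart of eIF4G1, ranked 3461 (2571, 3195 and 5422), 82 bp upstream of a start annotated also for CG33111 on the same strand. eIF4E6 ranked 2990 (3761, 3271 and 2626, 10.7% ± 1.90), 28 bp upstream of its start and 34 bp from that of CG1951, whose start is 62 bp away on the other strand. Whether Phol at either place has to do with the paralog or with the neighbour cannot be told apart from peak positions.

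The other testis-type paralogs lay far from reproducible summits. The nearest stood 31190 bp from eIF4E3, 9068 bp from eIF4E5, 26638 bp from eIF3d2, 13236 bp from eIF3f2 and 75647 bp from eIF3g2. eIF4E3 had a weak summit at rank 21088 of the pooled list and at rank 15223 of replicate 3, while in replicate 2 the nearest was 524 bp away, just outside the window. eIF3f2 had one in replicate 3 at rank 25618. eIF4E5, eIF3d2 and eIF3g2 had none in any list. For the lesser paralogs eIF4E4 and eIF4E7 the distances were 40426 and 32625 bp.

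The eIF4E paralogs are shown as an occupied and an unoccupied start. The window at the eIF4E6 summit (chr3R:29027152-29027252, minus strand, release 6) hold TATCGATA and the short GCCAT. The 30 bases shown from eIF4E3 (chr3L:8229245-8229274, plus strand) hold GCCATNTT 32 bp downstream of a start that was not occupied. Capitals mark the words.
eIF4E6: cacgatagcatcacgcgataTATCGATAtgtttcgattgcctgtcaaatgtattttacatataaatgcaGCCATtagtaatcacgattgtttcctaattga
eIF4E3: actcatgttaaGCCATTTTcattaacgctt
Within 50 bp of the most upstream start, GCCATNTT was found at 3 of the 52 genes (5.77%), eIF3a, eIF4H1 and eIF4E3, beside 2.19% of all protein-coding genes.

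Summits at translation factor genes lay close to the start. The median signed distance from start to nearest summit was −46.0 bp over the 37 occupied genes, negative being upstream, and −101 bp over the 5688 occupied genes of all kinds. It was −47.0, −49.0 and −30.0 bp in the strongest peaks of replicates 1, 2 and 3, beside −93.0, −98.0 and −112 bp. Within 100 bp lay 24 of 37 (64.9%), beside 46.7%. Upstream lay 28 of 37 (75.7%), beside 85.7%. The medians of initiation (−43.0 bp) and elongation (−46.0 bp) differed by less than the change between replicates. Their ranges were −232 to 87 bp and −368 to 386 bp. Of the strongest summits, 26 lay outside the gene, 7 in an untranslated exon, 3 in an intron (eEF1alpha2, eEF2 and eIF4H1) and 1 in a coding exon (eIF3h). These places were not counted for all occupied genes, so whether they are usual is not known.

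**Figure D3:**
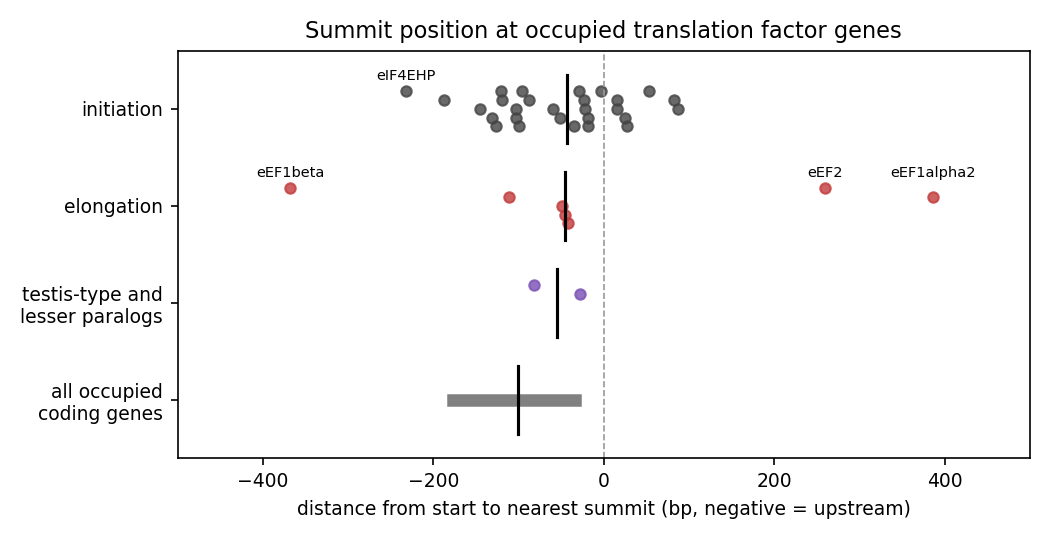
Distance in bp from an annotated start to the nearest reproducible summit (negative is upstream), 1 point per occupied gene, with the row median as a black line. The grey bar spans the middle of all 5688 occupied genes, from the 25th to the 75th percentile (−177 to −34.0 bp). eEF2 and eEF1alpha2 lie farthest downstream, and eEF1beta farthest upstream.

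The strength of the peaks was set beside that of all occupied genes, with no test. The median rank of their strongest peaks stood at 33.7% of the reproducible list, beside 37.1% for all occupied genes. In the strongest peaks of replicates 1, 2 and 3 it stood at 32.6%, 33.8% and 26.1%, beside 36.9%, 35.8% and 36.7%, a stronger median for the factor genes in each. In the full replicate lists it stood at 11.4%, 13.7% and 17.6%, beside 17.8%, 17.9% and 21.3%. Of the 37 genes, 6 (16.2%) were in the strongest 10% of the list, beside 17.0%, and 16 (43.2%) in the strongest 25%, beside 36.3%. The median stood at 35.7% for initiation and 20.8% for elongation.

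Replicate 3 gave a weaker place than the other replicates to some genes, at shares near those of all occupied genes. It gave the lowest place of the 3 replicates to 20 of the 37 genes (54.1%), beside 51.6% of the 5578 genes occupied in the reproducible list and in all 3 replicates. Replicate 1 gave it to 15 (40.5%), beside 29.7%. The rank in replicate 3 was over 1.5 times that of both others for 8 genes (21.6%), beside 17.7%. It was under both others by as much for 1 gene, eIF3i (2.70%), beside 2.71%. The 8 genes with the weaker peak in replicate 3 were 8 of the 30 initiation factor genes (26.7%) and 0 of the 7 elongation factor genes, beside 17.7%. This difference was not tested. Replicate 3 gave the lowest place to 17 of the 30 initiation factor genes (56.7%) and 3 of the 7 elongation factor genes (42.9%). The widest gaps were at eIF3d1 (2666, 3997 and 10417) and at eIF4B (7875, 5581 and 19702). eIF3k ranked 5515, 6969 and 12898. In the strongest 10264 peaks of replicate 3 the missing calls were those of eIF3d1, eIF4B, eIF3k, eIF2alpha, eIF2beta, eIF2Bdelta and eEF1beta.

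**Figure D4:**
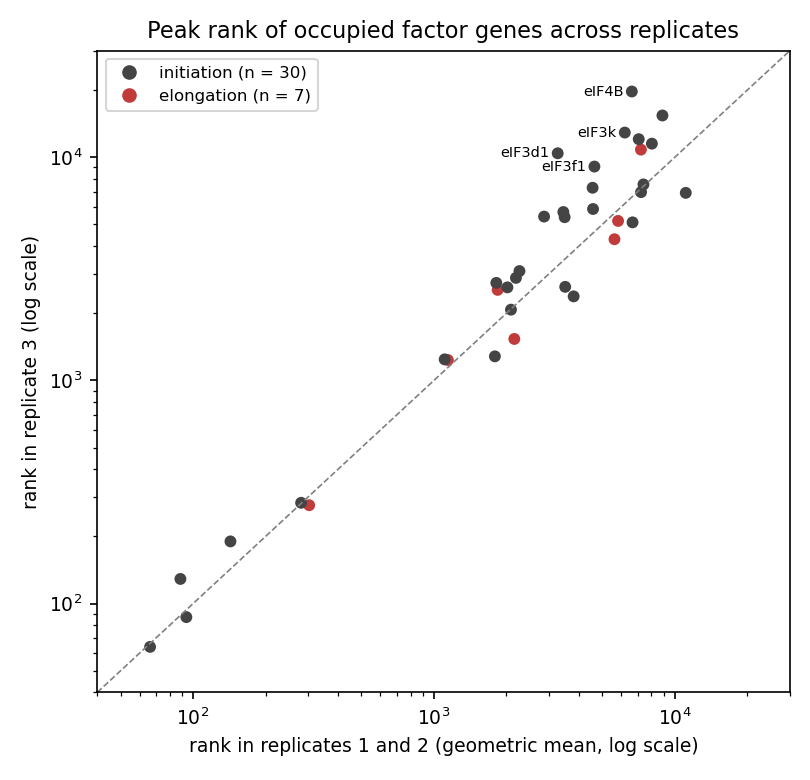
Peak rank in replicate 3 against the geometric mean of the ranks in replicates 1 and 2 (both log scales, 1 is the strongest) for the 37 occupied genes. The dashed line marks equal ranks. eIF4B, eIF3d1, eIF3k and eIF3f1 lie farthest above it.

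Divergent neighbours were frequent at these genes. A coding gene started on the opposite strand within 1000 bp upstream of 26 of the 52 genes, beside 36.2% of all protein-coding genes. With such a neighbour 21 of 26 (80.8%) were occupied, beside 69.1% of all such genes. Without one 16 of 26 (61.5%) were occupied, beside 24.7%. None of the 5 main paralogs had such a neighbour. Genes with several annotated starts offer more windows. Of them, 19 of 20 (95.0%) were occupied, beside 58.3%, against 18 of 32 with 1 start (56.2%), beside 34.5%. With the most upstream start alone the same 37 factor genes were occupied, and none of their calls rested on the extra windows. At 16 of the 37 strongest peaks (43.2%) another coding start lay within 500 bp of the summit, beside 55.7% of all occupied genes. It was nearer than the factor gene's own start at 5 (13.5%), beside 26.9%, namely eEF1beta, eIF1, eIF2Bdelta, eIF2Bepsilon and eIF4EHP. Another coding start was equally near at 3 (8.11%), beside 4.99%, namely eIF2gamma, eIF4G2 and eIF5. For eIF5 that was the start of CG46312.

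Many Drosophila genes of the translation machinery begin at a pyrimidine-rich initiator, which was searched for as TCTTT on the sense strand from 5 bp before to 10 bp after a start. TCTTT was found at any annotated start of 7 of the 52 genes (13.5%), beside 2.61% of all protein-coding genes. Genes with more starts have more chances, and at the most upstream start it was found at 3 (5.77%), beside 1.74%. The 7 were eEF1alpha2, eEF2, eEF5, eIF3g1, eIF3i, eIF3m and eIF4A, of which eIF3g1 was not occupied. In eIF4A, eEF2, eIF3i, eEF1alpha2 and eIF3g1 the word began 3, 3, 4, 5 and 6 bp downstream of the annotated start. A match was not shown to be an initiator. The 30 bases at 3 of these starts are shown to set a strong Phol peak (eIF4A), a weak one (eIF3i) and no call (eIF3g1) side by side. They come from chr2L:5981754-5981783 (plus), chr2L:4967756-4967785 (minus) and chrX:2610317-2610346 (minus) in release 6, with TCTTT in capitals.
eIF4A: gcaagatggagccTCTTTtgcttggtttta
eIF3i: cacggtcacactgcTCTTTtggcgtgtagt
eIF3g1: cgcggcagggtaacacTCTTTtgttgctga

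Other genes that act on translation, from a list with other symbols, were also counted. In the reproducible list 18 of 24 (75.0%) had a summit within 500 bp, beside 71.2% of the factor genes and 40.8% of all genes. In the strongest peaks of replicates 1, 2 and 3 their shares were 91.7%, 79.2% and 66.7% (mean 79.2% ± 12.5, SD, n = 3), each above that of the factor genes (71.2%, 71.2% and 57.7%). The difference was not tested. The strongest were those of kra, a relative of eIF5 (rank 152), NAT1, a relative of eIF4G (rank 988), Lk6, a kinase of eIF4E (rank 1248), and the release factor gene eRF3 (rank 1267). The genes without a call were 4E-T, DENR, Gcn2, Thor, mEFTu2 and mIF3. Thor encodes the eIF4E-binding repressor of cap-dependent translation.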

How the data were processed

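Peak lists from 3 replicates, their pool and a reproducible subset were analysed on release 6 (dm6), with Ensembl annotation release 115. The authors deposited a summit position and a signal value for each peak. Per the notes the authors deposited, replicate and pooled lists were called against a control alignment, not analysed here, and the reproducible list was filtered on the irreproducible discovery rate. Which aligner, caller and threshold were used is not given in the sources used here. The deposited signal has no stated scale and was used only to rank peaks within a list. All 10264 reproducible peaks are the strongest pooled peaks, so pooling and strength shape that list, and replicate shares used as many peaks of each list. Replicate pairs had 0 identical rows.

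Summits were placed in 1-based coordinates and matched to any annotated start within 500 bp with Python 3.11.15, numpy 2.4.6 and pandas 2.3.3, and plotted with matplotlib 3.10.9. The code was tested on simulated data. With 1 group no test was made, and the counts of the main groups are set beside the share of all protein-coding genes. The genes, lists and words were chosen with earlier results of these data known. All 52 genes are named by their call. Full values are given for the 8 strongest occupied initiation factor genes, elongation factor genes, paralogs, and genes whose call differed between lists or lay within 50 bp of the window's edge. The symbol mEFG2 matched no gene and was not used here. Alternatives changed the window, the starts, the list, the overlap rule, the paralog list and the replicates.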

Additional observations from a re-analysis of the deposited data

How the results depend on the processing

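The count of occupied translation factor genes was 33 with a window of 200 bp, 38 with 1000 bp, 37 with the most upstream start only, 38 with peak intervals in place of summits, and 28 to 36 with a replicate left out. In the strongest 50% of the reproducible list it was 23, with 18 initiation factor genes, an initiation minus elongation difference of −21.6 percentage points, a main minus testis-type difference of 23.3 points and a median rank of 20.8%. By strongest peak, 14 of the 37 genes (37.8%) lay in the weaker 50% of that list, beside 36.8% of all occupied genes. No share of all protein-coding genes was counted for other windows, peak intervals, the most upstream start alone or a left-out replicate. At 200 bp 4 elongation factor genes were occupied and the initiation minus elongation difference turned to 15.9 points. With 200 bp in the strongest peaks of a single replicate, chosen after seeing the data, it was 1.14 points in replicates 1 and 2, and 0 in replicate 3 with 4 elongation factor genes. It was −17.0 points with 1000 bp and with peak intervals, and −20.5 points in replicate 3 alone. Replicate 3 alone gave 23.3 points for main minus testis-type, a median offset of −30.0 bp and a median rank of 26.1%. With a replicate left out, the differences ranged from −25.0 to −21.6 points for initiation minus elongation and from 23.3 to 43.3 points for main minus testis-type, and the median rank from 29.4% to 33.2%. The main minus testis-type difference was 23.3 points both without replicate 1 and without replicate 2, and 43.3 without replicate 3. With the lesser eIF4E paralogs joined, 2 paralogs were occupied and the difference was 37.8 points. Cutting the list to its strongest 50% can only remove calls and leaves no rank beyond 50%, so the lower count and median rank there follow from the cut. The cause of the other changes was not tested. No paired analysis was possible because the samples form a single group. Read depth is unknown, so weak summits near the end of a list cannot be given a counting error.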
